A study of Mus musculus with 8 samples.

Results

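The 9 genes described here, Flt3, Il7r, Dntt, Rag1, Rag2, Ikzf1, Tcf7, Ccr9 and Notch1, are those whose transcripts are read as lymphoid priming in early blood progenitors. They were chosen by name, and every probe that the array files name for them was taken. This gave 17 of 41174 probes, and all 9 genes were among the 23020 genes and unnamed probes tested. Transcripts of haematopoietic stem cells (HSC) of donor origin, sorted by flow cytometry from transplanted mice, were measured on 8 Agilent mouse arrays with a single dye. The series compared 4 groups of 2 arrays each: E47 knockout (KO) cells from secondary recipients, wild-type (WT) cells from secondary recipients, KO cells from primary recipients and WT cells from primary recipients. All groups were lysed, amplified by a global PCR (the SuperAmp service) and labelled with Cy3 in the same way. The sources used here do not give the strain, age and number of the donor and recipient mice or the design of the knockout allele. Nor do they say whether the arrays of a group come from separate mice, so the p-values below rest on a spread between arrays that may be technical.

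E47 is a basic helix-loop-helix protein made from the gene Tcf3 (E2A), and it binds short DNA motifs called E-boxes in enhancers of lymphoid genes. In mouse bone marrow, multipotent progenitors turn on low levels of lymphoid genes before they lose other fates, a state known as lymphoid priming, and loss of E2A proteins is known to weaken it. The most immature HSC express little of this programme. Flt3 and Il7r are cytokine receptors of this stage, Rag1, Rag2 and Dntt act in the assembly of antigen receptor genes, Ikzf1, Tcf7 and Notch1 direct lymphoid fate, and Ccr9 guides progenitors to the thymus.

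The arrays differed in brightness. On replicate 2 of both primary groups, called the dim arrays below, 35.4% (KO) and 41.9% (WT) of spots lay well above background, against 72.2% to 90.7% on the other 6 arrays. Their 75th percentiles of signal were 19.6 and 36.5, against 320.3 to 848.4 on the others. Levels are given as log2 of the signal minus log2 of that percentile, so 0 is the 75th percentile of the array, and near the floor such scaled levels from dim and bright arrays cannot be compared. The WT arrays shared 1 slide, while the KO arrays had another slide per kind of recipient. Genotype and slide cannot be told apart. Of 12 HSC markers, 11 or 12 were well above background on each of the 6 bright arrays, and 7 (KO) and 6 (WT) on the dim ones. By the brighter of its 2 probes, Tcf3 itself gave a signal of 1664 and 167 in KO and of 1778 and 1773 in WT cells from secondary recipients, and of 83.8 and 101 in KO and of 104 and 1278 in WT cells from primary recipients. By the other it gave 496 and 149 (KO) and 38.6 and 394 (WT) in secondary recipients, and 28.7 and 2674 (KO) and 47.6 and 2.22 (WT) in primary recipients. Tcf3 also encodes E12, and the sources used here do not say where the probes lie relative to the deletion, so this does not check the labels. In sorted cells measured in bulk, fewer cells of a type and less RNA per cell cannot be told apart.

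The probes are single-stranded oligonucleotides of 60 bases, and each reports one short stretch of a transcript. The 30 bases shown (bases 31 to 60 of the probe, and 22 to 51 for A_51_P508510) are from the probes that represent the genes discussed most closely below, together with the second probes of Tcf7, Dntt and Notch1, because these lie close to the first and yet gave other values. Positions are those of the array files in mm8, and the letters AATAAA, the usual polyadenylation signal, are in capitals.
Ikzf1, probe A_52_P618569, chr11:11658319-11661278, plus strand: agatggcagaagacctgtgcaagataggag
Tcf7, probe A_52_P244711, chr11:52096752-52096811, minus strand: ctgatctcttcagctgcctaccctacaaat
Tcf7, probe A_52_P244702, chr11:52096035-52096094, minus strand: tccaaagaaaaccaaaaggggttatccaag
Dntt, probe A_51_P516085, chr19:41112757-41112816, plus strand: tgtctgaatctctgtgtattgccAATAAAa
Dntt, probe A_52_P601437, chr19:41112582-41112641, plus strand: aaggcaactttgaagtcttgataaaccagg
Notch1, probe A_52_P183088, chr2:26281319-26281378, minus strand: cctttttatttatatgtattgttttctatg
Notch1, probe A_51_P508510, chr2:26281261-26281319, minus strand: ctgttccaagaaAATAAActagttctcaga
Rag1, probe A_52_P646895, chr2:101445359-101445418, minus strand: catcctaaattttcaaagaaattccatgct
Rag2, probe A_52_P259521, chr2:101433127-101433186, plus strand: tcacatgtcattcaaggtccaatactgtgc
The Ikzf1 probe spans more of the genome than its own 60 bases, as a probe across a splice junction does. AATAAA stood in 2 of the 17 probes, those of Dntt and Notch1 shown here, and in 4.78% of all probes. Exon and UTR annotation of the other probes was not analysed here.

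No lymphoid priming gene passed the limma test in any comparison. That was 0 of 9 for KO against WT in secondary recipients, where 0% of all genes passed, and likewise 0 of 9 beside 0% of all genes for KO against WT in primary recipients, over both recipients and in the interaction. It was also 0 of 9 beside 0% for secondary against primary recipients in KO cells, in WT cells and over both genotypes. The differences that follow are therefore sizes with their errors. A log2 change is relative to the median gene, with its standard error (SE), and the adjusted p beside it is limma's for the change before this centring, which refers to the spread over all 8 arrays (4 residual degrees of freedom, or 5 over both groups). A gene is represented by its brightest probe. 5 of the 9 genes had a probe well above background on all 8 arrays, namely Flt3, Dntt, Ikzf1, Tcf7 and Ccr9. Il7r and Notch1 were above background on 7 arrays, Rag1 on 6 and Rag2 on 4.

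**Figure D1:**
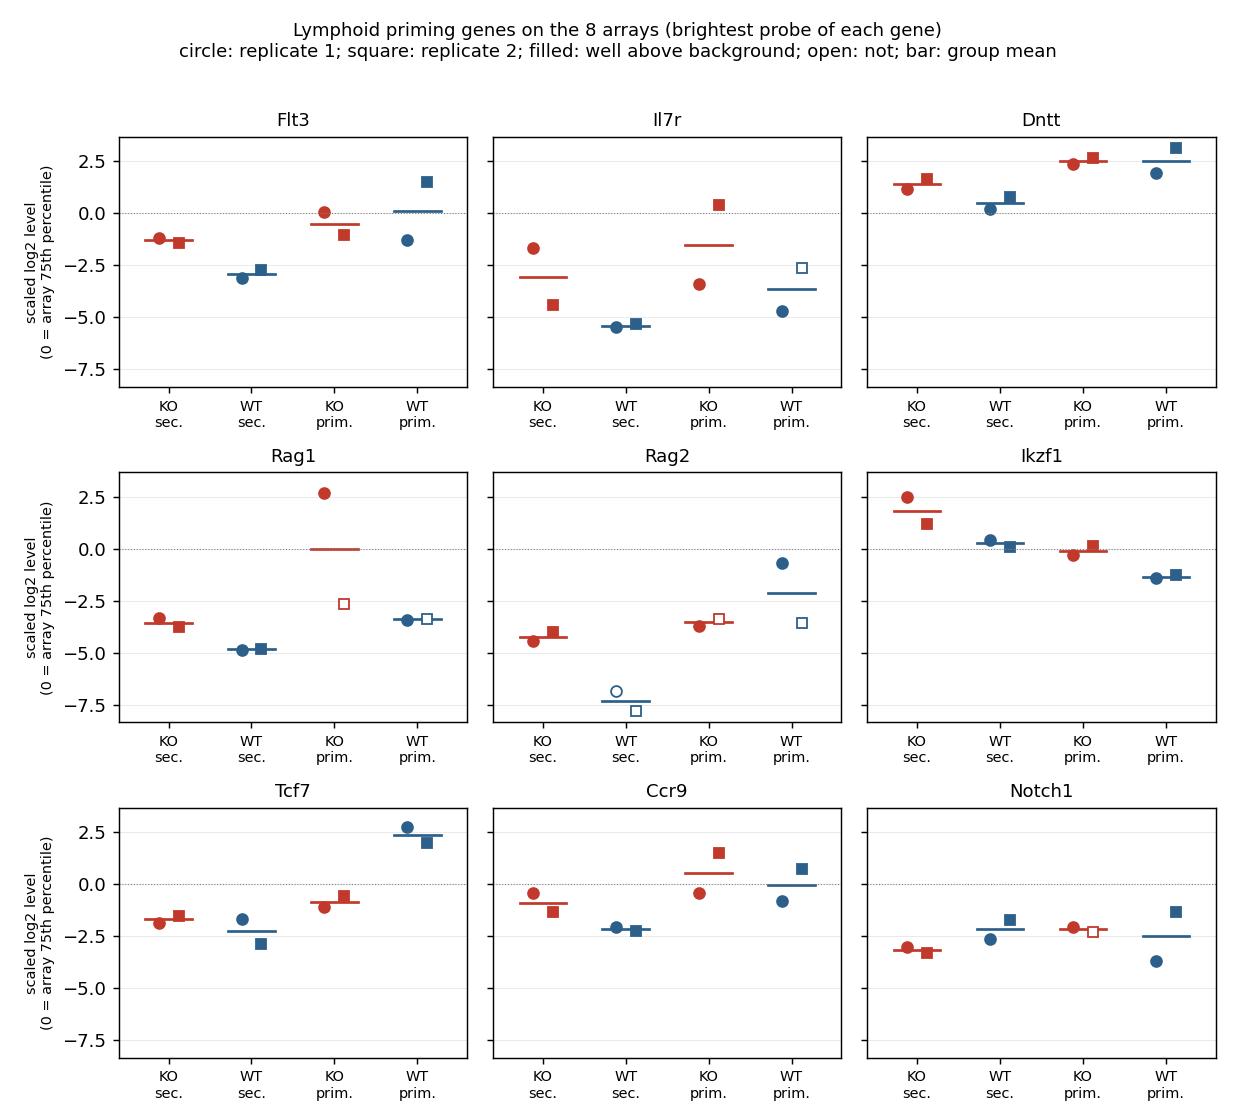
Scaled log2 level (0 is the 75th percentile of the array) of the brightest probe of each gene on each array, by group, with KO in red, WT in blue and the group mean as a bar. Ikzf1 lay highest in KO cells from secondary recipients, Tcf7 in WT cells from primary recipients, and Rag1 reached 2.70 on 1 KO array from primary recipients against at most -2.68 on the other 7.

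Flt3, the receptor tyrosine kinase for FLT3 ligand on multipotent and lymphoid progenitors, had scaled log2 levels of -1.18 and -1.41 in KO and of -3.11 and -2.73 in WT cells from secondary recipients. In primary recipients the levels were 0.09 and -1.06 in KO cells and -1.29 and 1.49 in WT cells. Both KO arrays lay above both WT arrays in secondary recipients, while in primary recipients the KO pair lay between the WT arrays. The change of KO against WT was 1.17 (SE 1.19, adjusted p = 0.984) in secondary and -0.87 (SE 1.19, adjusted p = 0.995) in primary recipients. Without both dim arrays the value in primary recipients was 1.24 (SE 0.90, adjusted p = 0.958), so its direction rests on them. Secondary against primary recipients, Flt3 stood at -0.28 (SE 1.19) in KO and at -2.03 (SE 1.19, adjusted p = 0.413) in WT cells. By group mean, WT cells from primary recipients came first (0.10 ± 1.97), then KO primary (-0.48 ± 0.81), KO secondary (-1.29 ± 0.16) and WT secondary (-2.92 ± 0.26; SD, n = 2 each). The primary groups overlapped, as did WT primary and KO secondary. On the dim KO array the signal was 9.41, near the lowest above background there (8.56), so the place of KO primary is uncertain.

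Il7r, the receptor chain for interleukin 7 and the mark of common lymphoid progenitors, was dim in all groups. Its signal was 209 and 20.2 in KO and 19.1 and 18.2 in WT cells from secondary recipients, and 33.9 and 26.0 in KO and 12.5 and 5.92 in WT cells from primary recipients, the last of these not well above background. Scaled levels were -1.67 and -4.42 (KO) and -5.47 and -5.32 (WT) in secondary recipients, and -3.40 and 0.41 (KO) and -4.68 and -2.62 (WT) in primary recipients. KO arrays lay above both WT arrays in secondary recipients, and in primary recipients the groups overlapped through WT replicate 2. The change was 1.90 (SE 1.60, adjusted p = 0.984) in secondary recipients, 1.87 (SE 1.60, adjusted p = 0.995) in primary recipients and 1.93 (SE 1.06, adjusted p = 0.851) over both. The value in secondary recipients was 0.51 without KO replicate 1 and 3.33 without KO replicate 2. A second Il7r probe 1627 bases away (A_52_P32750) was above background on 1 KO array and 1 WT array from secondary recipients, at 221 and 19.2, and not on the KO array on which the first probe was brightest. The third (A_51_P196695) was above background on none. Il7r, in secondary against primary recipients, stood at -1.02 (SE 1.60) in KO and -0.75 (SE 1.60) in WT cells.

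Dntt encodes terminal deoxynucleotidyl transferase, which adds bases at the joints of rearranged antigen receptor genes. Its brightest probe gave a signal of 1492 and 1371 in KO and of 987 and 1242 in WT cells from secondary recipients, and of 1869 and 127 in KO and 1219 and 321 in WT cells from primary recipients. Scaled levels were 1.17 and 1.67 (KO) and 0.22 and 0.77 (WT) in secondary recipients, and 2.39 and 2.69 (KO) and 1.93 and 3.13 (WT) in primary recipients. All 8 values lay above the 75th percentile of their array, and the 4 arrays from secondary recipients lay below the 4 from primary recipients. KO against WT, the change was 0.47 (SE 0.97, adjusted p = 0.984) in secondary and -0.28 (SE 0.97, adjusted p = 0.999) in primary recipients. Secondary against primary recipients, it was -0.60 (SE 0.97) in KO cells, -1.04 (SE 0.97) in WT cells and -0.85 (SE 0.66, adjusted p = 0.253) over both genotypes. This last value was 0.11 with another background correction (normexp). Of the other Dntt probes, A_52_P169420 was above background on 4 arrays at signals of 10.7 to 48.1, and A_52_P601437, which begins 175 bases from the brightest probe, on 1 array, replicate 1 of KO cells from secondary recipients, at 144 against 1.55 to 2.39 elsewhere.

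Summed over 9 markers of the B lineage, the scaled linear level was lower on all secondary than on all primary arrays, as for Dntt, with 8.94 and 11.1 in KO and 7.58 and 7.36 in WT cells from secondary recipients, and 14.8 and 15.3 in KO and 12.5 and 13.2 in WT cells from primary recipients. Unlike for Dntt, the KO sums also lay above the WT sums in primary recipients. Of these markers 8 or 9 were above background on each bright array, and 2 of the 9 lay lower on all secondary arrays, beside 12.7% of all genes. For Blnk, among these 2, that order includes the dim KO array, on which it was not well above background, so it cannot be relied on. The sums are not centred, and the median gene itself stood at -0.73 in secondary against primary recipients over both genotypes. Their part in the Dntt values was not tested.

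Rag1, which with Rag2 forms the enzyme that cuts antigen receptor genes, had a signal of 66.7 and 31.5 in KO and of 29.5 and 25.6 in WT cells from secondary recipients. In primary recipients the signal was 2323 and 3.06 in KO and 30.4 and 3.50 in WT cells, where replicate 2 of either group was not well above background. The scaled levels were -3.31 and -3.78 (KO) and -4.84 and -4.83 (WT), then 2.70 and -2.68 (KO) and -3.40 and -3.38 (WT). A lone array, replicate 1 of KO cells from primary recipients, stood apart from the other 7. KO against WT, the change was 3.12 (SE 1.66, adjusted p = 0.995) in primary recipients. It was 0.18 without that array, and 5.96 (SE 0.91, adjusted p = 0.429) without both dim arrays, where it sets that array alone against 1 WT array and takes its SE from the secondary groups. In secondary recipients it was 0.84 (SE 1.66, adjusted p = 0.984). Another Rag1 probe 5864 bases away (A_51_P232411), above background on the same number of arrays, did not show the lone high array: its signal was 64.4 and 12.9 (KO) and 33.3 and 145 (WT) in secondary recipients, and 32.5 and 2.57 (KO) and 84.6 and 2.47 (WT) in primary recipients. By that probe the change was -1.17 (SE 1.39) in secondary recipients and -0.75 (SE 1.39) in primary ones. Over the 8 arrays the pair of probes correlated at r = 0.061. The third Rag1 probe (A_51_P232416), spotted 10 times, was above background on 1 array, replicate 2 of WT cells from secondary recipients, at 43.3.

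Rag2, on the strand opposite Rag1 and next to it, was near the floor. Its signal was 30.9 and 26.6 in KO cells from secondary recipients, both above background, against 7.30 and 3.27 in WT cells, neither of them above it. In primary recipients it was 27.4 and 1.90 in KO and 202 and 3.13 in WT cells, with replicate 1 of either group above background. In secondary recipients the level was at least 3.97-fold higher in KO than in WT cells (limma change 2.65, SE 1.20, adjusted p = 0.910). Such a bound sets the brighter group's mean against, per array of the dimmer group, the lowest signal above background or the probe's own. The bound is not centred, and the median gene itself stood 0.46 higher in KO cells from secondary recipients. A gene was tested only if both arrays of some group were above background, and Rag2 met this only in these KO cells. That rule favours a high value there, so the bound and the limma change are not evidence of a difference. In WT cells, secondary against primary recipients, the change was -4.23 (SE 1.20, adjusted p = 0.354), but only 1 of these 4 arrays was above background, so its size is not known. The change of KO against WT in primary recipients was -1.71 (SE 1.20), and the interaction was 4.27 (SE 1.69, adjusted p = 0.9998). The size of either is not known, because Rag2 was above background on only 4 of the 8 arrays. This probe is spotted 10 times on each array. The log2 SD of those spots was 0.088 to 0.54, while the replicate arrays of a group differed by 0.33 to 2.88.

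Ikzf1 encodes Ikaros, a zinc finger protein needed for lymphoid development and active already in HSC. Its signal was 3675 and 975 in KO and 1151 and 788 in WT cells from secondary recipients, and 286 and 21.6 in KO and 120 and 15.0 in WT cells from primary recipients. The scaled levels were 2.47 and 1.18 (KO) and 0.44 and 0.11 (WT), then -0.32 and 0.14 (KO) and -1.42 and -1.28 (WT). KO lay above WT without overlap in both kinds of recipient, and secondary above primary recipients without overlap in both genotypes. KO against WT, the change was 1.09 (SE 0.97, adjusted p = 0.984) in secondary recipients, 0.97 (SE 0.97, adjusted p = 0.995) in primary recipients and 1.07 (SE 0.64, adjusted p = 0.851) over both. It stayed above 0 under all alternatives run, between 0.43 and 1.84 in secondary and between 0.60 and 1.31 in primary recipients, and never passed the threshold. Secondary against primary recipients, it was 2.44 (SE 0.97) in KO cells, 2.62 (SE 0.97) in WT cells and 2.50 (SE 0.64, adjusted p = 0.249) over both, with alternatives from 2.30 to 3.08. The 4 group means ran from KO secondary (1.82 ± 0.91) over WT secondary (0.28 ± 0.23) and KO primary (-0.09 ± 0.33) to WT primary (-1.35 ± 0.10; SD, n = 2 each), and of these neighbours only WT secondary and KO primary overlapped. Of all genes tested, 5.71% were higher in KO without overlap in both kinds of recipient, and Ikzf1 and Rag1 were those of the 9. For Rag1 the dim arrays of that comparison were not well above background.

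Tcf7 encodes TCF-1, a transcription factor of Wnt signalling and the first steps of T cell commitment. By its brightest probe the signal was 181 and 152 in KO and 262 and 101 in WT cells from secondary recipients, and 165 and 13.4 in KO and 2182 and 147 in WT cells from primary recipients. The scaled levels were -1.88 and -1.51 (KO) and -1.69 and -2.85 (WT) in secondary recipients, and -1.12 and -0.55 (KO) and 2.77 and 2.01 (WT) in primary recipients. Both WT arrays from primary recipients, the dim one included, lay above the other 6. KO against WT, the change was -3.51 (SE 0.98, adjusted p = 0.995) in primary recipients, between -4.13 and -2.19 under the alternatives. It was 0.13 (SE 0.98, adjusted p = 0.984) in secondary recipients. The difference between these changes, the interaction, was 3.53 (SE 1.39, adjusted p = 0.9998). In WT cells, secondary against primary recipients, it was -3.66 (SE 0.98, adjusted p = 0.333), and in KO cells -0.33 (SE 0.98). These comparisons share the WT arrays from primary recipients, so they are not separate evidence.

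The second Tcf7 probe, 717 bases away, gave another picture. It was above background on replicate 1 of KO cells from secondary recipients (signal 112) and from primary recipients (57.0), and on none of the 4 WT arrays, where its signal was 1.70 to 6.56. By that probe KO against WT was 1.91 (SE 1.86, adjusted p = 0.9998) in secondary and 2.11 (SE 1.86, adjusted p = 0.9997) in primary recipients, the opposite direction to the brighter probe there. Only 1 of 2 KO arrays measured it in either kind of recipient, so the sizes are not known. The pair correlated at r = 0.107 over the 8 arrays. The lower Tcf7 level in KO cells from primary recipients thus rests on 1 probe. Summed over 8 T lineage markers, the scaled linear level was 18.3 and 438.5 in KO and 12.3 and 15.9 in WT cells from primary recipients. Its sum on the dim KO array came mostly from Lck, at a scaled level of 8.73. In secondary recipients it was 4.64 and 13.6 in KO and 4.57 and 4.34 in WT cells. On the bright arrays 7 or 8 of the 8 markers were above background, and their part in the Tcf7 values was not tested.

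Notch1 is the receptor whose signal commits progenitors to the T lineage in the thymus. Its scaled levels were -3.02 and -3.32 in KO and -2.63 and -1.73 in WT cells from secondary recipients, and -2.05 and -2.28 in KO and -3.69 and -1.33 in WT cells from primary recipients. The last KO value was not well above background. KO lay below WT in secondary recipients, and in primary recipients the KO pair lay between the WT arrays. KO against WT, the change was -1.45 (SE 1.11, adjusted p = 0.984) in secondary and 0.06 (SE 1.11, adjusted p = 0.995) in primary recipients. The other Notch1 probe starts 59 bases away. It gave a signal of 113 and 2.76 in KO and of 222 and 333 in WT cells from secondary recipients, where the second KO value was not well above background and the size of the change (-3.84, SE 1.72, adjusted p = 0.9998) is therefore uncertain. In primary recipients it was above background only on WT replicate 1, at 41.4. Over 10 spots per array its log2 SD was 0.051 to 0.66, and its replicate arrays differed by up to 4.73.

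Ccr9, the receptor for the chemokine CCL25 of thymus and gut, had a signal of 496 and 170 in KO and of 207 and 152 in WT cells from secondary recipients, and of 271 and 56.1 in KO and 186 and 59.7 in WT cells from primary recipients. Scaled levels were -0.42 and -1.34 (KO) and -2.03 and -2.26 (WT) in secondary recipients, and -0.40 and 1.52 (KO) and -0.78 and 0.71 (WT) in primary recipients. KO lay above WT in secondary recipients and overlapped it in primary recipients. The change was 0.81 (SE 1.12, adjusted p = 0.984) in secondary and 0.31 (SE 1.12, adjusted p = 0.995) in primary recipients, and the value in primary recipients turned to -0.29 without WT replicate 1 and to -0.081 without KO replicate 2. Secondary against primary recipients, it was -1.05 (SE 0.75, adjusted p = 0.256) over both genotypes, where the groups overlapped.

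**Figure D2:**
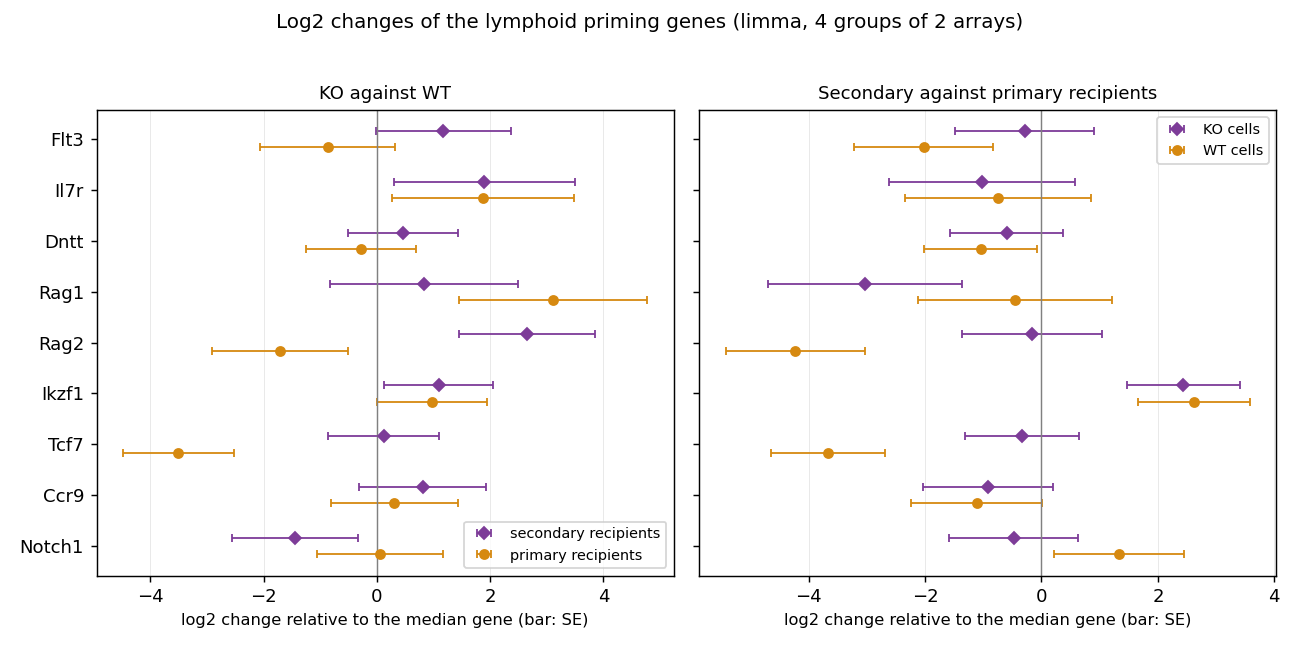
Log2 change of each gene relative to the median gene (limma, bar: SE), KO against WT on the left and secondary against primary recipients on the right. Tcf7 in primary recipients (-3.51) and Rag2 in secondary recipients (2.65) lay farthest from 0 in units of their SE among the genotype changes, and Ikzf1 was the only gene above 0 by more than its SE between recipients in both genotypes.

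Set side by side in secondary recipients, 7 of the 9 genes lay higher in KO cells without overlap (all but Tcf7 and Notch1), and 1, Notch1, lay lower. That sort of separation was common there: 34.1% of all genes lay higher and 12.2% lower without overlap, and the median gene itself stood 0.46 higher in KO cells. The median change of the 9 relative to that gene was 0.84, with 8 above and 1 below it (50% of all genes lie above, by construction), and 1, Rag2, higher in KO, had an unadjusted p under the threshold of 0.05, beside 3.7% of all genes. Rag2 met the rule for testing only through KO cells from secondary recipients, which favours a high value there. It is therefore not evidence in any of these counts. Leaving out the dim arrays, which are not in these groups, left these counts as they were. In primary recipients 2 genes (Rag1 and Ikzf1) lay higher in KO cells without overlap and 1 (Tcf7) lower, beside 16.9% and 9.11% of all genes. The median change there was 0.06, with 5 genes above and 4 below the median gene. Unadjusted, 1 gene (Tcf7), lower in KO, passed, beside 1.98% of all genes. Without both dim arrays the median in primary recipients was 0.95, with 7 above and 2 below, and unadjusted 1 gene (Rag1) then passed as higher and 2 (Tcf7 and Rag2) as lower, beside 7.48% of all genes. That setting leaves 1 array in each primary group, which is taken to vary like the secondary groups, and this holds wherever both dim arrays are left out. Over both recipients no gene separated all 4 KO from all 4 WT arrays, beside 1.79% of all genes, the median change was 0.51, and 0 had an unadjusted p under the threshold, beside 4.67%. Without both dim arrays 2 did, Rag1 (2.56, SE 1.11) and Flt3 (1.21, SE 0.52), both with adjusted p = 0.740, beside 6.5% of all genes.

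Secondary against primary recipients, the comparison in WT cells lies within 1 slide. There 7 of the 9 genes lay lower in cells from secondary recipients without overlap and 1 (Ikzf1) higher, beside 40.1% and 15.3% of all genes, and Notch1 overlapped. For Il7r, Rag1 and Rag2 that order includes the dim WT array, on which they were not well above background. It cannot be relied on for them. The median gene stood 0.995 lower in cells from secondary recipients, and relative to it the median of the 9 was -1.04. Unadjusted, 3 genes (Tcf7, Rag2 and Flt3) passed, all lower, beside 6.56% of all genes that were lower. Without the dim arrays it was 2, Tcf7 and Rag2, beside 14.8% of all genes in either direction. In KO cells, where slide and recipient cannot be told apart, 7 genes lay lower and 1 (Ikzf1) higher without overlap, beside 28.4% and 12.7%, with a median of -0.48. For Rag1, Rag2 and Notch1 that order includes the dim KO array, on which they were not well above background. It cannot be relied on for them either. In this comparison 0 genes had an unadjusted p under the threshold, beside 6.04%. Without both dim arrays 1 did, Rag1 (-6.01, SE 0.79, adjusted p = 0.275), beside 9.61%. Over both genotypes 3 genes (Dntt, Rag2 and Tcf7) lay lower on all 4 secondary than on all 4 primary arrays, beside 12.7% of all genes, and none higher, beside 3.16%. For Rag2 that order includes dim arrays on which it was not well above background, so it cannot be relied on. Here 4 genes had an unadjusted p under the threshold and lay lower (Tcf7, Rag2, Dntt and Ccr9), beside 13.7% of all genes, and 1 lay higher (Ikzf1), beside 5.51%. Without both dim arrays these were 2 lower (Rag1 and Flt3) and 1 higher (Ikzf1), beside 15.3% in either direction. For the interaction of genotype and recipient, Rag2 was above background on only 4 of the 8 arrays, so its size there is not known. This interaction had 2 genes with an unadjusted p under the threshold, Tcf7 and Rag2, both above 0, beside 2.02% of all genes. Without both dim arrays Rag1 joined them below 0 (-5.19, SE 1.11, adjusted p = 0.564), beside 7.64% in either direction.

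Most markers of granulocytes and monocytes differed between recipients. Of 12 measured, 9 lay lower on all secondary than on all primary arrays, beside 12.7% of all genes, while Elane, Csf1r and Ly6c1 overlapped. For Lcn2, among the 9, that order includes the dim KO array, on which it was not well above background. Its order therefore cannot be relied on. The 12 markers had a summed scaled linear level of 16.5 and 26.8 in KO and 29.6 and 19.3 in WT cells from secondary recipients. In primary recipients the sum was 229 and 15860 in KO and 266 and 10470 in WT cells. Of the 12, 9 to 11 were above background on each secondary array and 11 or 12 on each primary array. S100a8, Lcn2 and Retnlg were above background on no WT array from secondary recipients. The part of this list in the values of the lymphoid genes between recipients was not tested.

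**Figure D3:**
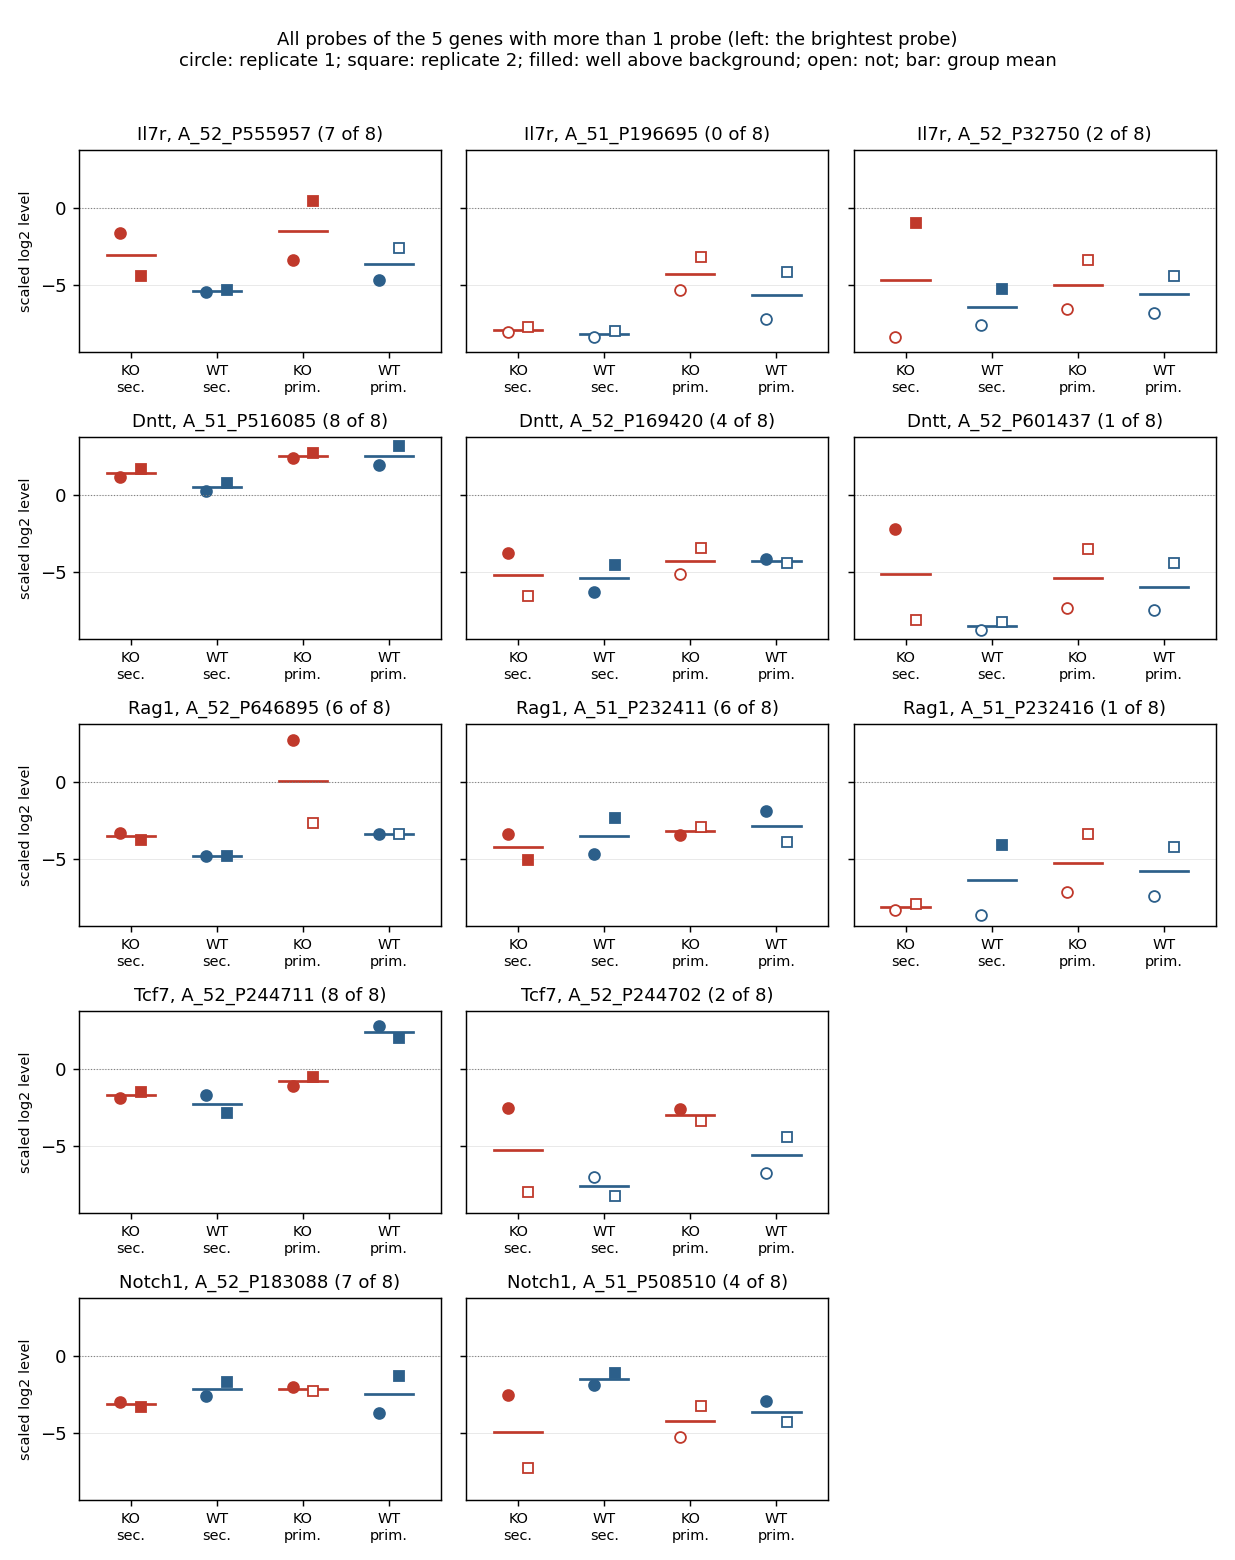
Scaled log2 level of every probe of the 5 genes with more than 1 probe, in the same layout, with the number of arrays on which the probe was well above background in each title. The probes of a gene often disagreed: the lone high Rag1 array and the high Tcf7 levels in WT cells from primary recipients appear on 1 probe each.

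Within the set, genes did not move as a block over the 8 arrays. As a description, Pearson's r between scaled levels was 0.903 for Il7r and Ccr9, 0.896 for Flt3 and Dntt, 0.856 for Dntt and Ccr9 and 0.809 for Rag2 and Tcf7, and it was -0.738 for Ikzf1 and Tcf7. The points share arrays and their scaling, and the dim arrays are among them. Among named genes above background on at least as many arrays as the gene in question, Zfp707 (0.982) and Fndc7 (0.974) ran most like Tcf7, and Hhat (0.991) was among those most like Dntt. For Flt3 these were Taar9 (0.988) and Il15 (0.985), for Il7r Ppil6 (0.986) and Art1 (0.981), and for Ccr9 Mybphl and Cnnm3 (0.988 each). For Rag1 they were Nmbr (0.988) and Cnr1 (0.98), for Notch1 Znf512b (0.957) and Eya2 (0.945). Among the genes so compared, Ikzf1 had the least close company, with Tapbpl (0.864) and Car13 (0.844). Rag2, above background on too few arrays, was left out.

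Partners of these genes, 69 in all and 66 of them tested, also held no gene past the threshold in any comparison. Those tested were 11 partners in cytokine signalling, 16 of the Notch pathway, 11 in recombination, 20 transcription factors and 8 in homing. KO against WT in secondary recipients, 2 had an unadjusted p under the threshold and lay higher (Prkdc and Foxo1) and 2 lower (Xrcc6 and Bcl11b), beside 3.7% and 1.65% of all genes, with a median of -0.19. By the probe used, Prkdc and Foxo1 were above background on both arrays only in KO cells from secondary recipients. Xrcc6 was so only in WT cells from secondary recipients. The rule for testing can favour the higher group for such genes, so these 3 are not evidence of a difference. In primary recipients, by the same threshold, 2 lay higher (Jak1 and Tcf7l2) and 1 lower (Hmgb1), beside 1.99% and 1.98%, with a median of -0.24. Between recipients, secondary against primary, these counts were 1 higher and 3 lower in KO cells, 4 and 4 in WT cells, and 4 and 10 over both genotypes, with medians of 0.05, -0.17 and 0.02. The shares of all genes were 3.27% and 2.77%, 5.43% and 6.56%, and 5.51% and 13.7%. Jak1, a kinase bound by the interleukin 7 receptor, was higher in KO cells from primary recipients, at scaled levels of -2.14 and 3.08 (KO) against -4.97 and -3.98 (WT), a change of 4.66 (SE 1.65, adjusted p = 0.995). Jak1 in WT cells stood at 1.82 and 1.13 in secondary recipients, 6.95 (SE 1.65, adjusted p = 0.376) above primary recipients. Il2rg, the chain that pairs with Il7r, likewise stood at 3.15 and 1.93 in WT cells from secondary against -3.69 and -3.34 in those from primary recipients (7.05, SE 1.76, adjusted p = 0.376). The dim WT array was not well above background for Jak1 or Il2rg, so the sizes against WT cells from primary recipients are uncertain. Tslp, a cytokine that signals through Il7r, had levels of -1.74 and -4.38 in KO and -5.81 and -5.32 in WT cells from secondary recipients, and of 2.22 and -0.47 in KO and -3.92 and -1.08 in WT cells from primary recipients. KO lay above WT without overlap in either kind of recipient, beside 5.71% of all genes (2.61, SE 1.02, adjusted p = 0.851 over both). The Tslp signal was 1662 and 199 on replicate 1 of KO cells from primary and secondary recipients, and 14.1 to 21.2 on the other arrays. On the dim arrays it was lower in KO (14.1) than in WT cells (17.3), so their order rests on the scaling. Flt3l, the ligand of Flt3, was above background on all 8 arrays and lower in secondary than in primary recipients over both genotypes (-1.86, SE 0.84, adjusted p = 0.249).

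Among partners in recombination, Hmgb2, a DNA-bending cofactor of the RAG enzyme, had levels of 4.96 and 4.80 in KO and 4.50 and 4.85 in WT cells from secondary recipients, and of -1.17 and 0.57 in KO and 3.84 and -1.91 in WT cells from primary recipients. All secondary arrays lay above all primary arrays (5.17, SE 1.22, adjusted p = 0.212). Xrcc6, the Ku70 subunit of the end joining complex, was lower in KO cells from secondary recipients (-4.37, SE 1.54, adjusted p = 0.910), with levels of -2.42 and -6.16 (KO) against 0.54 and -1.30 (WT). The second KO array was not well above background. Prkdc, the catalytic subunit of the DNA-dependent kinase of end joining, was above background on both KO arrays and neither WT array from secondary recipients. By the bound used for Rag2, before centring, its group mean was at least 9.40-fold higher in KO (limma change 4.60, SE 1.87, adjusted p = 0.899). The KO levels were -0.81 and -5.14 against a WT floor of -6.21, so this bound rests mostly on KO replicate 1. Among T lineage factors, Bcl11b was lower in KO cells from secondary recipients (-2.88, SE 0.97, adjusted p = 0.910), with levels of -2.31 and -3.42 (KO) against -0.29 and -0.59 (WT). Foxo1, a factor that acts on Il7r and the Rag genes, lay the other way there (3.63, SE 1.67, adjusted p = 0.917), with -0.89 and -2.32 (KO) against -4.58 and -6.81 (WT), the last not well above background. Gata3 was lower in KO cells over both recipients (-4.96, SE 1.96, adjusted p = 0.851), and it reached 9.22 on the dim WT array against 0.43 on its replicate. Ccl25, the ligand of Ccr9, stood at -1.11 (SE 0.78, adjusted p = 0.257) in secondary against primary recipients over both genotypes. Cxcr4, the chemokine receptor that holds HSC in the marrow, had levels of -2.98 and -2.98 in WT cells from secondary against -0.89 and 0.75 in those from primary recipients (-1.92, SE 1.13, adjusted p = 0.413). Notch4, a paralogue of Notch1, stood at -1.27 (SE 0.74, adjusted p = 0.249) in secondary against primary recipients over both genotypes. On the dim WT array Notch4 was not well above background (signal 6.09), so that size is uncertain. Bcl11a, a factor of early B lineage cells, stood at 2.74 (SE 0.68, adjusted p = 0.249) in the same comparison, above background on all arrays and higher on all secondary ones.

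The region just upstream of the annotated start was read for E-boxes, the motif bound by E47, which is deleted in the KO cells. The RefSeq table of GRCm38.p6 gave 11 windows for the 9 genes, from 250 bases before to 50 after a start. CANNTG, searched on both strands, stood in 8 of the 11 windows and for 7 of the 9 genes, beside 72.3% of all 32851 windows. The form CAGGTG, on either strand, which also counts as CANNTG, stood in the windows of Ccr9, Rag1 and Tcf7, beside 20.2% of all windows. The form CAGCTG stood in those of Rag1 and Tcf7, beside 16.3%. The windows of Ikzf1 and Notch1 held none of these letters. The 250 bases before the start of Rag1 and Ccr9 are shown because both held CAGGTG there, with each match in capitals.
Rag1, GRCm38.p6, chr2:101649533-101649782, minus strand: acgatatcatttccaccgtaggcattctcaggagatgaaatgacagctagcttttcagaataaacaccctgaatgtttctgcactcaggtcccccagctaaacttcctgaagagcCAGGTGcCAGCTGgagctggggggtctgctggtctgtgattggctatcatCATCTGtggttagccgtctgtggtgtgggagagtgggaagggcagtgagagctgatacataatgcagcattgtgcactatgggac
Ccr9, GRCm38.p6, chr9:123766961-123767210, plus strand: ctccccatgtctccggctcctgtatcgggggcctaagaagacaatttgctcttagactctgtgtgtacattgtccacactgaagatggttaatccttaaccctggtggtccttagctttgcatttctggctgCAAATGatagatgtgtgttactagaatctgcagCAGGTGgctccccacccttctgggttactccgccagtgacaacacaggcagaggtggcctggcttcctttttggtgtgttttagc
In Rag1 CAGGTG began at -135 and CAGCTG at -128 from the start, and in Ccr9 CAGGTG began at -85. A match is a run of letters, and no binding was measured here.

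**Figure D4:**
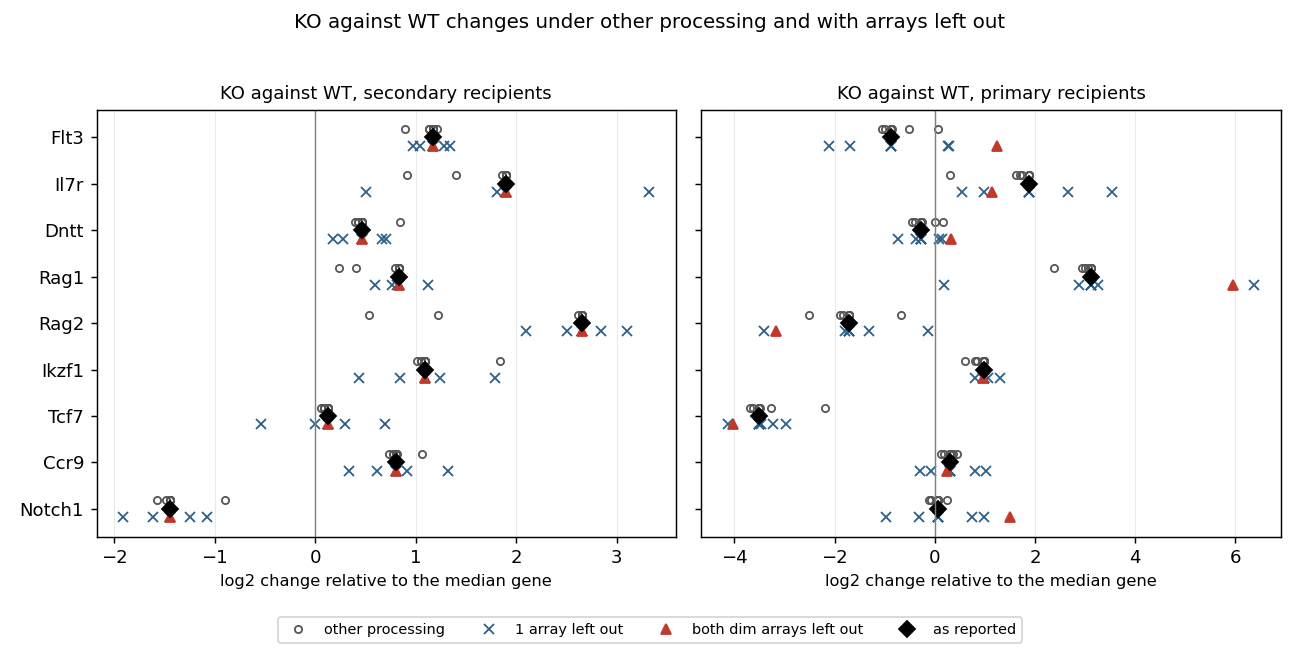
Log2 change of KO against WT relative to the median gene for each gene as reported (black), under other processing (circles), with 1 array left out (crosses) and with both dim arrays left out (triangles). In secondary recipients the sign held for all genes but Tcf7, and in primary recipients it held for Il7r, Rag1, Rag2, Ikzf1 and Tcf7. Every setting used the brightest probe of a gene. Among genes whose sign held, another probe had the opposite sign for Rag1 and Tcf7 in primary recipients. The same was so for Il7r, Dntt and Rag1 in secondary recipients.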

How the data were processed

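The signals were read with Agilent Feature Extraction, version 10.5.1.1 in the file headers. Each deposited scanner file gives intensities per spot, not in log units, and the processed intensity used here was background-subtracted by that software, per the file headers. In the deposited series matrix each value is a ratio, the processed signal over its array median (column medians of 1, and 0.999954 to 1.000046 times the value computed from the scanner files). It served as an alternative. The sources used here give no further processing.

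Of 43379 spots per array that were not controls, outlier-flagged ones (67 to 116 per array) were dropped and the spots of a probe averaged. 41048 of 41174 probes kept a value on every array, and no spot was saturated. Values were log2 of the processed intensity minus that of the 75th percentile of the array. Probes were named by accession through the mouse gene table of GRCm38.p6, used for names only. 24375 probes matched by their first accession, 121 by another, 4654 through a probe of the same name and 2552 by symbol, while 3068 kept the file's name and 6404 had none. Probes whose accession names another gene were left out. A gene was tested if, in 1 or more groups, both arrays had a probe of it well above background. limma 3.58.1 (R 4.3.3; lmFit, eBayes) was fitted over the 4 groups, and with genotype plus recipient for comparisons over 8 arrays, with Benjamini-Hochberg adjustment and a threshold of 0.05. The fit was tested on simulated data.

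The members and the lists of partners and cell type markers were chosen with earlier results of these data known. All members are named. Partners with an unadjusted p under 0.05, bright ones that changed most and those that bind a member could be named, and not all were, and like genes are the 2 of highest r, of which 1 is not reported here. Alternatives were normexp (offset 50), quantile normalization, another centring, other probe filters, every probe as a feature, the deposited ratios, leaving out arrays, a replicate block, slide, and another variance estimate. Samples with the same replicate number correlated in their deviations from the group means at r = -0.0262 to 0.15, so the numbers were not taken as pairs. 2 arrays per group limit the precision.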

Additional observations from a re-analysis of the deposited data

Results flagged for a closer look

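Of the 8 member probes that do not represent their gene, 2 gave a signal above background on KO arrays and on 0 WT arrays. The Tcf7 probe A_52_P244702 did so on 2 KO arrays, replicate 1 of either kind of recipient. The Dntt probe A_52_P601437 did so on 1 KO array, replicate 1 from secondary recipients. Neither probe entered the comparisons of the report as the value of its gene, and neither passed limma's test in the fit over all 41048 probes, which called 0 probes in each comparison.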

How the results depend on the processing

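Across 63 values (9 genes in 7 comparisons) and 20 settings, none of 1151 recomputed values passed the threshold, and 41 of the 63 kept their direction throughout. All settings scored a gene by its brightest probe, so the other probes of a gene are not among these values. With the replicate block, 0 members and 0 of all genes passed the threshold in every comparison, and the replicate numbers were not shown to pair the samples. For secondary against primary recipients over both genotypes, the count of all genes past the threshold was 0 as reported, 205 with quantile normalization, 306 centred on probes detected on all arrays, 78 without both dim arrays, 39 with a trended and robust variance and 1 with normexp. For KO against WT in primary recipients it was between 0 and 540 on leaving out 1 array. The 540 came without WT replicate 1, where the dim array alone stands for WT and is taken to vary like the other groups. The following changes turned their direction. In KO against WT in primary recipients, Flt3 was 0.072 and Dntt was 0.011 with normexp, Dntt was 0.16 with quantile normalization and Notch1 was -0.068 with no filter on dim probes. There, Flt3 was 1.24 and Dntt was 0.32 without both dim arrays and Notch1 was -0.12 with every probe as a feature. In KO against WT over both recipients, Rag2 was -0.086 with normexp and Rag2 was -0.63 with quantile normalization. In the interaction, Il7r was 0.63 with normexp, Flt3 was -0.14 and Il7r was 0.69 without both dim arrays and Il7r was 0.011 with every probe as a feature. In secondary against primary recipients in KO cells, Dntt was 0.32 with normexp, Rag2 was 0.037 with no filter on dim probes and Flt3 was 0.31 and Tcf7 was 0.26 with only probes detected on all arrays. There, Il7r was 0.59 without both dim arrays. In secondary against primary recipients in WT cells, Il7r was 0.022 without both dim arrays. In secondary against primary recipients over both genotypes, Dntt was 0.11 and Notch1 was -0.15 with normexp, Notch1 was -0.26 with quantile normalization and Il7r was 0.32 without both dim arrays. Leaving out 1 array at a time, some values crossed 0. For KO against WT in secondary recipients, Tcf7 lay between -0.53 and 0.69. For KO against WT in primary recipients, Ccr9 lay between -0.29 and 1.02, Notch1 lay between -0.97 and 0.99, Flt3 lay between -2.12 and 0.28 and Dntt lay between -0.73 and 0.14. For KO against WT over both recipients, Flt3 lay between -0.11 and 0.87, Dntt lay between -0.062 and 0.36 and Rag2 lay between -0.12 and 1.57. For the interaction, Il7r lay between -1.69 and 1.36, Ikzf1 lay between -0.61 and 0.63, Ccr9 lay between -0.27 and 1.05 and Rag1 lay between -5.54 and 0.60. For secondary against primary recipients in KO cells, Flt3 lay between -1.15 and 0.43, Il7r lay between -2.78 and 0.59, Rag2 lay between -0.47 and 0.35 and Tcf7 lay between -0.63 and 0.16. For secondary against primary recipients in WT cells, Il7r lay between -1.81 and 0.022. For secondary against primary recipients over both genotypes, Notch1 lay between -0.20 and 0.68. Near the floor, levels of dim and bright arrays have no order, which touches Rag1, Rag2, Il7r and Notch1. On the dim KO array Flt3, Tcf7 and Ikzf1 were also low, at signals of 9.41, 13.4 and 21.6, where the lowest above background was 8.56. The cause of these shifts was not tested.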
